A study of Mus musculus with 800 samples.

Results

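Neuropeptides are short signalling peptides cut from larger precursor proteins in the secretory pathway and stored in dense-core granules until release. The 7 genes followed here are peptide precursor or granule genes, described cell by cell in the embryonic mouse retina. They are Tac1, Penk, Pnoc, Adcyap1, Gal, Cartpt and Resp18. These are 7 of 49492 gene symbols in the count table and were chosen by their measured levels and shares of cells in these same libraries, so their difference between the groups is given as a description. Retinas were taken at E15.5 from C57BL/6 mice carrying Sert-Cre. In this line Cre recombinase is driven by the gene of the serotonin transporter, Slc6a4. The labels give 400 cells as Tomato+ and 400 as Tomato-, Tomato being a red fluorescent protein, and both groups come from the Sert-Cre line. Retinas were pooled, dissociated and sorted by flow cytometry, per the labels, and the gate is not described.

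Cells with more than 20% of counts in mitochondrially encoded genes were left out, which removed 73 of the 400 Tomato+ and 38 of the 400 Tomato- cells and kept 689 of 800. Median totals were 271789 counts per Tomato+ cell and 243409.5 per Tomato- cell, with 4550 and 3755.5 genes detected. No animal is named for a cell, so each group is 1 sample and no test between groups was made. The spread is given instead over the numbers in the cell titles, 1 to 10 for Tomato+ and 11 to 20 for Tomato- cells, with 24 to 39 kept cells each. What these title numbers stand for is not stated. The titles also hold 40 ROW numbers, each shared by both groups. Levels are counts per 1000000 counts (CPM) over summed cells. A cell is said to hold a gene at 5 or more counts. Intervals are exact 95% intervals, Poisson for CPM and Clopper-Pearson for shares, and cover counting error only. Where 0 cells held a gene, the limit given is instead 3 cells of those looked at.

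The groups differ in cell makeup. Summed markers of retinal ganglion cells (RGCs), the neurons that send axons to the brain, stood at 20118 to 23840 CPM over Tomato+ title numbers and 7353 to 13210 CPM over Tomato- ones, with 12 of 12 markers held by at least 10% of cells in both groups. Summed progenitor markers ran from 27.5 to 522 CPM in Tomato+ and from 3001 to 5383 CPM in Tomato- title numbers, with 0 of 10 and 10 of 10 markers held by at least 10% of cells. None of these markers was at 0 in either group. Summed erythroid markers ran from 1.68 to 8705 CPM over Tomato+ title numbers and from 1.74 to 3.25 CPM over Tomato- ones. The part of this difference in each gene's ratio over all cells was not tested. Values within RGC-like cells, a class of clusters described further on, are given for the 7 genes and for the gene lists.

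As background, Tac1 encodes the tachykinins substance P and neurokinin A, Penk the enkephalins, and Pnoc nociceptin, the ligand of the opioid-related receptor Oprl1. Adcyap1 encodes PACAP, which in the mature retina is known from melanopsin-containing RGCs that project to the circadian centre. Gal encodes galanin and Cartpt the CART peptides, the latter a marker of direction-selective RGCs in the adult. Resp18 encodes a protein of the endoplasmic reticulum and granule membrane system of neuroendocrine cells, and is not itself known as a peptide precursor.

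Many neuropeptide genes are known to be induced through the cAMP response element, a site bound by CREB. Its half-site TGACG was searched on both strands in the 250 bases before each RefSeq start (GRCm38.p6), which the table used here gives for 5 of the 7 genes, Tac1, Adcyap1, Gal, Cartpt and Resp18. Of these, 3 held it, against 17.8% of all 32851 windows. The complete element TGACGTCA, which contains the half-site on each strand, was in 1 of the 5, Cartpt, and in 1.55% of all windows. The matches are shown as 30 bases each, on the gene's strand, to place this element beside the expression values. Capitals mark bases of the half-site on either strand.
Tac1, chr6:7554852-7554881, plus strand: tccctaaaattgCGTCAtttcgaacacaat
Tac1, chr6:7555006-7555035, plus strand: gctctacaggctCGTCAcgcctgagataaa
Adcyap1, chr17:93198914-93198943, plus strand: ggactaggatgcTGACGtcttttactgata
Cartpt, chr13:99900778-99900807, minus strand: cccggcgggcatTGACGTCAaacggcagcg
No binding was measured in these cells, and a match is a run of letters only. In Tac1 both matches read as the half-site on the other strand. The second Tac1 match and the Cartpt match lie within the gene bounds that GENCODE vM21 gives, which begin upstream of the RefSeq starts.

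Tac1 (chr6:7554879-7565834, plus strand, GENCODE vM21 on GRCm38) was found mainly in Tomato+ cells. Over Tomato+ title numbers it ran from 29.9 to 117.9 CPM with a median of 62, and over Tomato- title numbers from 0 to 22.8 CPM with a median of 2.96. The title numbers of the groups did not overlap. The share of all genes without such overlap was not counted, so nothing is read from it here, for Pnoc or in the figure. Summed over all kept cells, Tac1 stood at 64.1 CPM (62.5 to 65.8) for Tomato+ against 6.43 CPM (5.93 to 6.96) for Tomato-, a log2 ratio of 2.17 with 10 CPM added to each. Tac1 was held by 89 Tomato+ cells, 27.2% (22.5 to 32.4), and by 9 Tomato- cells, 2.49% (1.14 to 4.67). Among the cells that held it, the median level was 131.99 CPM for Tomato+ against 144.7 CPM for Tomato-, so the groups differed more in the number of cells with Tac1 than in the level per cell. In 32 of the 40 ROW numbers the Tomato+ level was the higher, and in 7 the lower.

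Pnoc (chr14:65400673-65425472, minus strand) was also found mainly in Tomato+ cells. It ran from 47.7 to 140 CPM over Tomato+ title numbers (median 99) and from 0.191 to 36.6 CPM over Tomato- ones (median 6.60). These ranges did not overlap. The levels over all kept cells were 92.9 and 12.1 CPM, a log2 ratio of 2.22. Pnoc was held by 40.4% (35 to 45.9) of Tomato+ cells and by 20 Tomato- cells, 5.52% (3.41 to 8.40). In the cells that held it the median was 154.7 CPM for Tomato+ against 75.9 CPM for Tomato-. Pnoc was higher in Tomato+ cells in 39 of 40 ROW numbers.

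Penk (chr4:4133531-4138819, minus strand) showed the opposite distribution. Over Tomato- title numbers it ran from 5.35 to 118.7 CPM with a median of 29.8, and over Tomato+ ones from 0 to 7.68 CPM with a median of 0.125. The ranges overlapped, and 8 of 10 Tomato- title numbers lay above the highest Tomato+ one. Penk was held by 47 Tomato- cells, 13% (9.70 to 16.9), and by 3 Tomato+ cells, 0.917% (0.190 to 2.66), and the levels of 44.6 and 1.47 CPM gave a log2 ratio of -2.25. The median among its Tomato- cells was 240 CPM and the highest 3422 CPM. In 33 of 40 ROW numbers Tomato+ cells were the lower and in 0 the higher.

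**Figure D1:**
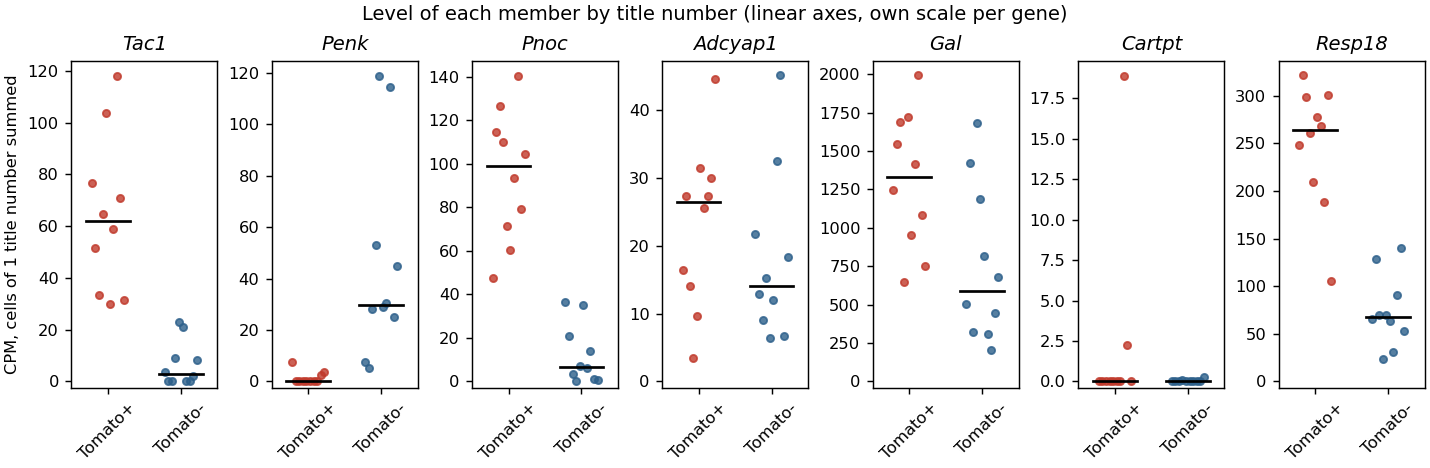
Level of each gene in CPM over the summed kept cells of each title number, on linear axes with a scale per gene. Each point is 1 title number, 10 per group, and black lines mark medians. The Tac1 and Pnoc points of the groups do not overlap, Penk is reversed, and Adcyap1 overlaps almost fully.

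Resp18 (chr1:75272199-75278415, minus strand) followed the direction of Tac1 and Pnoc. It ran from 105.8 to 321.5 CPM over Tomato+ title numbers and from 23.2 to 140.6 CPM over Tomato- ones. Of the 10 Tomato+ title numbers, 9 lay above every Tomato- one, and title number 10 was the exception. It was held by 63.9% (58.4 to 69.1) of Tomato+ cells and by 58 Tomato- cells, 16% (12.4 to 20.2). The levels were 255.7 and 71.9 CPM, a log2 ratio of 1.70, with 39 of 40 ROW numbers higher in Tomato+ cells.

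Adcyap1 (chr17:93199017-93206537, plus strand) did not separate the groups. It ran from 3.42 to 44.5 CPM over Tomato+ title numbers and from 6.37 to 45.1 CPM over Tomato- ones, and the ranges of the groups nearly coincided. The levels were 21.8 and 18.5 CPM, a log2 ratio of 0.16. The SD over single title numbers was 0.58 on the same log2 scale, which is not the error of this ratio. In 21 of 40 ROW numbers Tomato+ cells were the higher and in 19 the lower. It was held by 54 Tomato+ cells, 16.5% (12.7 to 21), and 35 Tomato- cells, 9.67% (6.83 to 13.2).

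Gal (chr19:3409915-3414544, minus strand) was held by 80.4% (75.7 to 84.6) of Tomato+ cells and by 160 Tomato- cells, 44.2% (39 to 49.5). Its level ran from 650 to 1996 CPM over Tomato+ title numbers and from 206.5 to 1680 CPM over Tomato- ones, and these ranges overlapped. The levels over all cells, 1326 and 754 CPM, gave a log2 ratio of 0.81. The SD over single title numbers was 0.80 on the same log2 scale, which is not the error of this ratio. In 33 of 40 ROW numbers Tomato+ cells were the higher and in 7 the lower. The mean of the ratios within ROW numbers was 1.71. The sums rested on different numbers of cells. In Tomato- cells 5 cells held 52.3% of all Gal counts, against 14.1% for the top 5 Tomato+ cells.

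Low Gal counts were widespread, and their share moved with the Gal counts of the same ROW number. Of all 800 cells, among those below 5 Gal counts, 59.6% had 1 to 4 counts where the other cells of the same ROW number summed to 2497 Gal counts or fewer, and 81.6% where they summed to 5599.25 or more. The part of this in the Gal shares was not tested. At 20 or more counts Gal was in 70.03% of Tomato+ cells, against 28.7% for Tomato-. For Pnoc, split likewise by its own counts, the shares with 1 to 4 counts were 10.6% and 8.23%, and for Tac1 3.74% and 9.24%.

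Cartpt (chr13:99898489-99901091, minus strand) was detected in few cells. At 5 or more counts it was found in 2 Tomato+ cells, 1 at 342.1 CPM and 1, with 20 counts, at 64.1 CPM. In Tomato- cells 2 cells had 3 counts and 1 count, and 0 held it at 5 or more, which allows a share of up to 0.829%. The higher of the Tomato+ cells also had 87 counts of Pou4f2, 75 of Eomes and 66 of Slc6a4. The other had 0 counts of Slc6a4 and Eomes, 21 of Pou4f1 and 10 of Isl2.

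Of the 7 genes, 6 were among the 13688 genes with 5 or more counts in at least 1% of kept cells, and Cartpt was not. Of these 6, 3 (Tac1, Pnoc and Resp18) had a log2 ratio of at least 1, as did 2.31% of all 13688 genes. Penk was the 1 gene with a ratio of at most -1, as did 5.39% of all. The median was 1.25 over the 6 genes and -0.06 over all genes. Since the 7 were chosen on this contrast, nothing is read from these counts. Thinning every cell to 94783 counts, with 1 or more counts taken as presence, left out 33 Tomato+ and 36 Tomato- shallower cells. The thinned shares were 32.3% and 4.29% for Tac1, 46.9% and 8.90% for Pnoc, 2.04% and 16.3% for Penk, and 21.8% and 14.4% for Adcyap1.

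**Figure D2:**
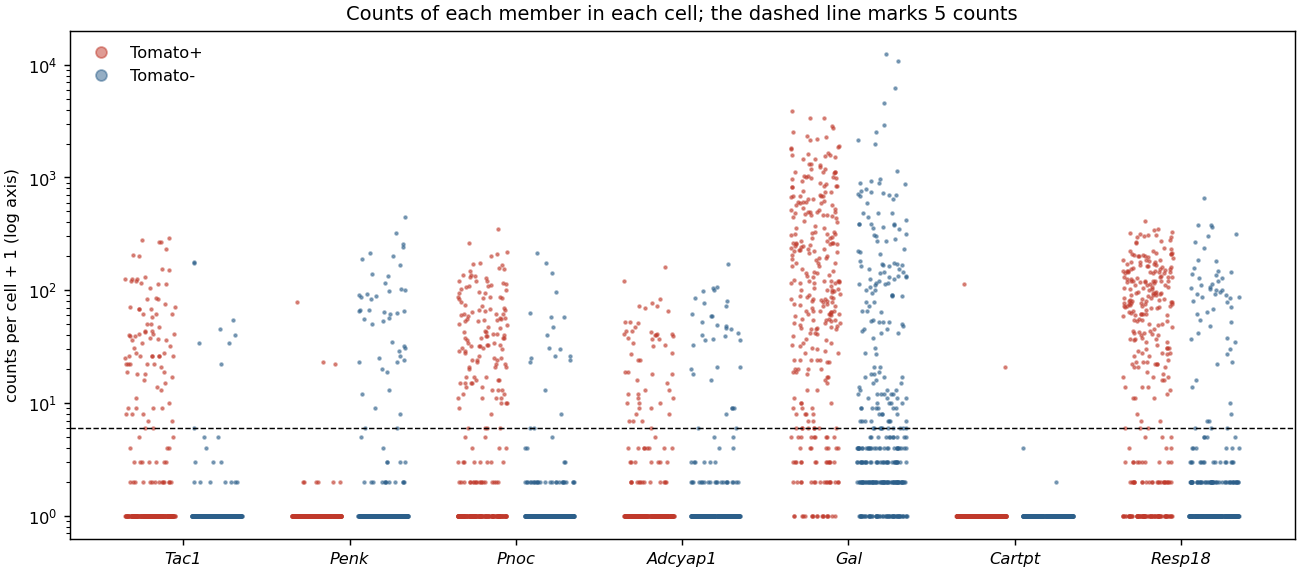
Counts per cell plus 1, on a log axis, for each gene in the kept cells of each group, 1 point per cell. The dashed line marks 5 counts. Gal fills the range from 1 count upwards in both groups, while Tac1, Pnoc and Penk are at 0 in most cells of both groups, and the highest points are Tomato- cells with Gal.

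To place the genes in cell classes, the 689 kept cells were clustered without these 7 genes and without the other neuropeptide genes, giving 9 clusters. Clusters 1 to 5 were RGC-like, clusters 0 and 6 progenitor-like, cluster 7 photoreceptor-like and cluster 8 unnamed. Cluster 8 raised 11 of 12 RGC markers, but its top 10 genes held 4 progenitor markers and 0 RGC markers. Cluster 6 was led by Top2a and other mitotic genes with Hes6, a gene of neurogenic cells. It raised 9 of 9 neurogenic precursor markers and 10 of 10 progenitor markers, so its name does not separate these classes. Cluster 4 was led by Cntn2, Isl1 and Pou3f1, and cluster 5 by Igf1 and Eomes. RGC-like cells were 97.2% of kept Tomato+ and 34.8% of kept Tomato- cells.

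Over both groups, RGC-like cells made up 95.9% of the cells that held Tac1 and 96.1% of those with Pnoc. They were 93.3% of those with Adcyap1 and 92.5% of those with Resp18. In Tomato+ cells, 97.2% of which were RGC-like, these shares were 98.9%, 100%, 98.1% and 99.04%. In Tomato- cells, 34.8% of which were RGC-like, they were 66.7% for Tac1, 70% for Pnoc, 85.7% for Adcyap1 and 69% for Resp18. These Tomato- shares rest on 9, 20, 35 and 58 cells. Of the 423 cells with Gal in both groups, 78.01% were RGC-like, with 97.7% in Tomato+ and 45.6% in Tomato- cells. Penk was the exception, with 5 of its 50 cells RGC-like and 78% in the progenitor-like clusters, mostly cluster 6. No photoreceptor-like cell of 48 held Tac1 or Pnoc, which allows a share of up to 6.25%. Pnoc was held by 0 progenitor-like cells, which allows a share of up to 1.75%, and had 1 or more counts in 5.85% of them, where Gal had 1 or more in 81.3%.

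Penk was concentrated in 1 cluster. It was held by 36 of the 58 cells of cluster 6, 62.1%, and by 3 cells of the other progenitor-like cluster, 2.65%. Median totals of the 2 clusters were 228400 and 230300 counts. Penk was held by 3 of 48 photoreceptor-like cells, 3 of 26 cells of cluster 8 and 5 of 444 RGC-like cells.

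Within RGC-like cells the groups sat in different clusters, with 50.8% of the Tomato- and 3.46% of the Tomato+ RGC-like cells in cluster 4. That cluster raised 12 of 12 RGC markers and also 4 progenitor markers. Of RGC-like cells, Top2a was held by 4.09% of Tomato+ and 37.3% of Tomato- ones. Ccnd1 was held by 4.72% and 29.4% of them, and Fgf15 by 1.89% and 20.6%. The groups thus differ in makeup within this class too, and its part in the values below was not tested. Among RGC-like cells Tac1 was held by 27.7% (22.8 to 32.9) for Tomato+ against 4.76% (1.77 to 10.1) for Tomato-, and Pnoc by 41.5% (36 to 47.1) against 11.1% (6.21 to 17.9). Gal was held by 80.8% and 57.9%, and Resp18 by 65.1% and 31.7%. The log2 ratios of CPM among RGC-like cells were 1.95 for Tac1, 2.16 for Pnoc, 1.07 for Gal and 0.96 for Resp18. For Penk, with 3 and 2 such cells, the ratio was -0.07. Of the 13688 genes, 0.628% had a ratio of at least 1 there and 0.884% one of at most -1, and the median was -0.01. The order of Adcyap1 turned around. It was held by 30 Tomato- RGC-like cells, 23.8% (16.7 to 32.2), and by 53 Tomato+ ones, 16.7% (12.7 to 21.2), with levels of 36.3 and 20.4 CPM, a log2 ratio of -0.60. The exact intervals of the 2 Adcyap1 shares overlap. Of the 30 Tomato- cells, 22 lay in cluster 4. By cluster, the Tomato- share was the higher in cluster 4 (34.4% against 27.3%) and cluster 1 (28.6% against 21.7%). It was the lower in cluster 2 (5.26% against 12%), cluster 3 (0% against 16.7%) and cluster 5 (11.1% against 13.3%). These last 3 clusters had 19, 13 and 9 Tomato- cells.

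The RGC-like clusters divided the genes further. Among Tomato+ cells, Pnoc was held by 61.7% of the 60 cells of cluster 5, 55.6% of the 72 of cluster 3, 35.9% of the 92 of cluster 1 and 25.3% of the 83 of cluster 2. The 11 Tomato+ cells of cluster 4 held Pnoc in 1 cell and Tac1 in 3, too few to place in an order. In the same 4 clusters Tac1 had another order, with 37.5% in cluster 3, 33.7% in cluster 1, 12 of 60 cells in cluster 5 and 18.1% in cluster 2. Resp18 was held by 88.3% of cluster 5 and 32.5% of cluster 2. Cluster 2 was also the shallowest, with a median of 163100 counts over both groups against 278800 to 312700 in the other RGC-like clusters. In Tomato- cells, cluster 4 held 22 of the 35 cells with Adcyap1. In that cluster 34.4% of its 64 Tomato- cells held Adcyap1, 3.12% Tac1, 1.56% Pnoc and 10.9% Resp18. Cluster 4 also held 50.8% of all Tomato- RGC-like cells. Of the other RGC-like clusters, cluster 1 had the nearest Adcyap1 share, 28.6% (11.3 to 52.2) of its 21 Tomato- cells.

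**Figure D3:**
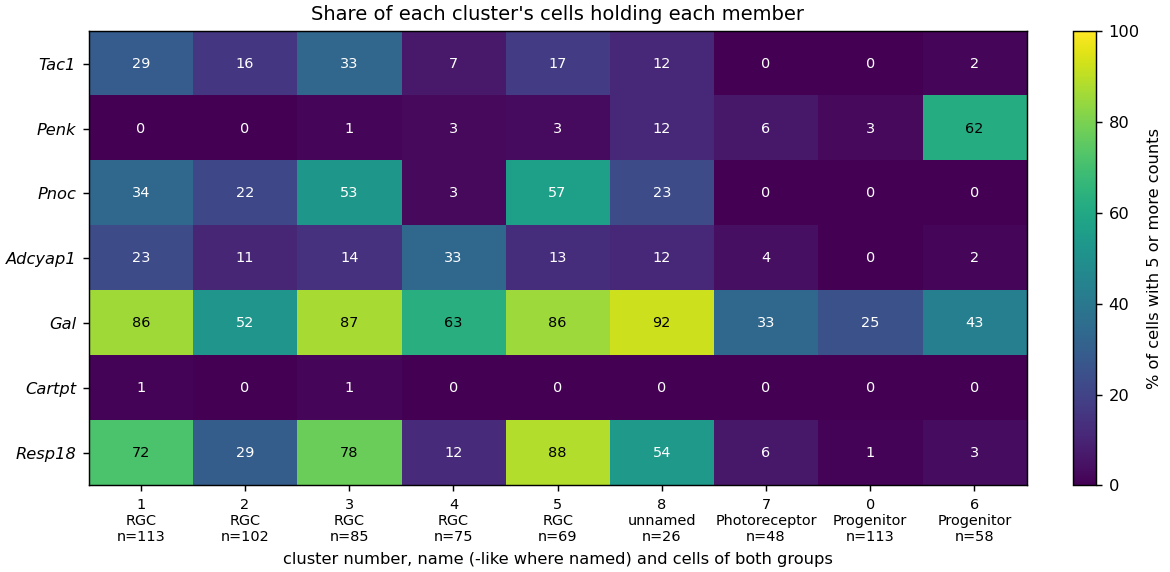
Percent of the cells of each cluster, both groups together, with 5 or more counts of each gene, with clusters named by class below. Penk stands at 62% in cluster 6 and at 12% or less elsewhere, Adcyap1 is highest in cluster 4, and Pnoc and Resp18 are highest in cluster 5.

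Most Tomato+ cells held several of the 7 genes when Gal and Resp18 were counted. At least 2 were held by 73.7% (68.6 to 78.4) of Tomato+ cells and by 91 Tomato- cells, 25.1% (20.8 to 29.9). With Gal and Resp18 left out, at least 2 were held by 20.5% of Tomato+ and 3.04% of Tomato- cells. The most common combinations in Tomato+ cells were Gal with Resp18 (51 cells), Pnoc with both (48), Gal alone (40), and Tac1 and Pnoc with both (27). None of the 7 was held by 25 Tomato+ and 150 Tomato- cells. The most frequent Tomato- combinations were Gal alone (81 cells), Gal with Resp18 (27), Penk alone (25) and Penk with Gal (15).

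Of the 3 peptide genes Tac1, Pnoc and Adcyap1, at least 1 was held by 61.5% of Tomato+ cells. Of these, 54 held 2 and 10 held all 3. Tac1 and Pnoc met in 44 Tomato+ cells, which are 49.4% (38.7 to 60.2) of the cells with Tac1 and 33.3% (25.4 to 42.1) of those with Pnoc. In Tomato+ cells without Tac1, 36.97% held Pnoc. The share was higher with Tac1 than without in 8 of 10 title numbers and lower in 2. Tac1 and Pnoc therefore appeared both together and apart, with 45 cells holding Tac1 without Pnoc.

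**Figure D4:**
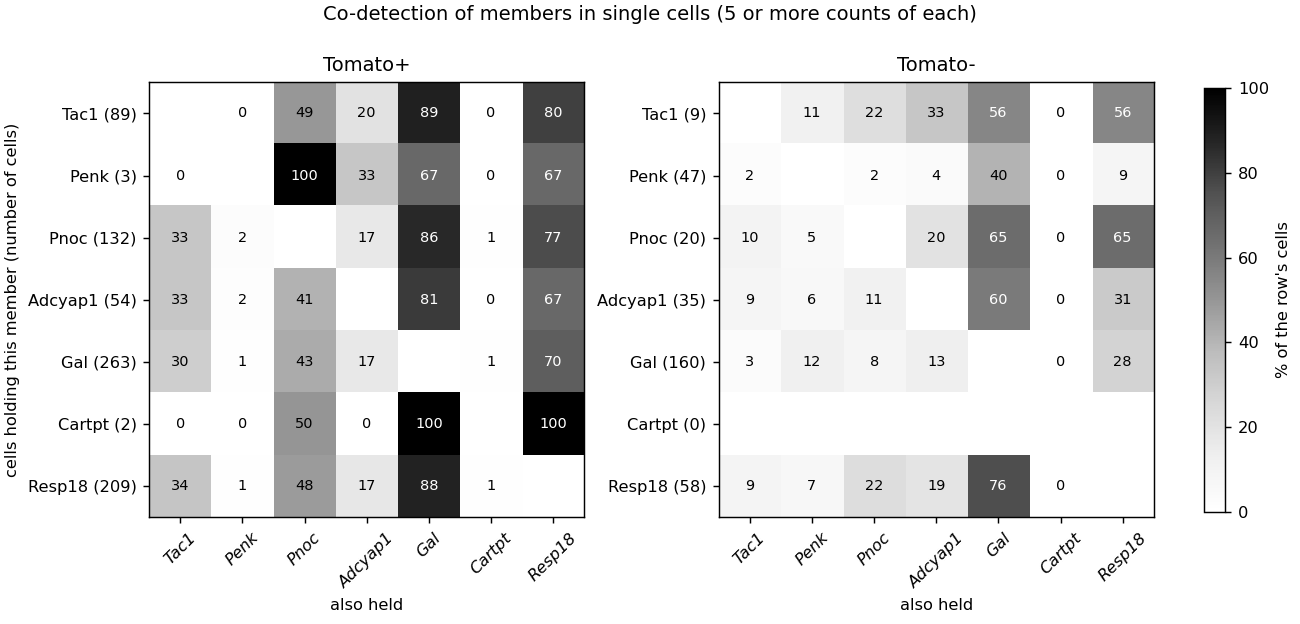
Co-detection per cell in Tomato+ (left) and Tomato- (right) cells, at 5 or more counts. Each square gives the percent of the cells of the row's gene, with their number in brackets, that also held the column's gene. Gal and Resp18 columns are dark in Tomato+ cells. Penk stands at 0 against Tac1 there, with 3 cells holding Penk.

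Penk and Tac1 met in 0 of the 3 Tomato+ cells with Penk and in 1 of the 47 Tomato- ones. Tac1 was held by 27.2% of all Tomato+ and 2.49% of all Tomato- cells. Of the 47 Tomato- cells with Penk, 43 held none of Tac1, Pnoc and Adcyap1. At least 1 of these 3 genes was held by 15.5% of all Tomato- cells. Whether Penk and these genes avoid each other was not tested. The 3 Tomato+ cells with Penk had 22, 78 and 21 Penk counts. All held Pnoc, with at least 15 counts, and Pou4f2, a transcription factor of RGCs, with at least 64. They had 0 counts of Neurog2. They were RGC-like, from title numbers 10, 1 and 9.

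Adcyap1 met the other peptides in Tomato+ cells about as often as they occurred there. Of its 54 cells, 33.3% held Tac1 and 40.7% Pnoc, against 27.2% and 40.4% of all Tomato+ cells. Resp18 was held by 76.5% of Tomato+ cells with Pnoc, 79.8% of those with Tac1 and 66.7% of those with Adcyap1, against 63.9% of all. Gal was held by 88.04% of the cells with Resp18.

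The genes differed in which RGC identity genes accompanied them. Of Tomato+ cells with Tac1, 55.1% (44.1 to 65.6) also held Slc6a4, the serotonin transporter, against 29.8% (24.1 to 36.1) of Tomato+ cells without Tac1. Median totals were 294527 and 265942.5 counts. The share was higher with Tac1 in 9 of 10 title numbers, and after thinning it was 61.1% and 40.2%. Eomes, a transcription factor of RGC subtypes, was held by 38.2% and 35.7% of the same cells. Higher Slc6a4 shares were not particular to Tac1. In Tomato+ cells they were 41.1% with and 18.8% without Gal, 48.1% and 34.4% for Adcyap1, and 38.8% and 33.1% for Resp18. After thinning they were 47.9% and 37.9% for Gal, 50% and 46.1% for Adcyap1, and 45.5% and 51.4% for Resp18. In Tomato- cells Slc6a4 was held by 1 cell, and that cell held Tac1.

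Pnoc had other company, though the difference between the genes was not tested. Eomes was held by 50.8% (41.9 to 59.6) of Tomato+ cells with Pnoc and 26.7% (20.6 to 33.5) of those without, and Igf1, a growth factor gene, by 59.1% and 39%. Slc6a4 was held by 38.6% and 35.4%. After thinning, the Eomes shares were 59.4% and 38.5% and those of Slc6a4 44.2% and 49.4%. Eomes was higher with Pnoc in 9 of 10 title numbers and lower in 0. Resp18 was also accompanied by Eomes, held by 43.5% of cells with Resp18 and 23.7% of those without. Pou4f2 and Ubash3b, a phosphatase-like gene, were more frequent with both Tac1 (77.5% and 83.1%, against 60.1% and 67.2% without) and Pnoc (74.2% and 82.6%, against 58.5% and 64.1%).

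Penk cells carried proneural genes beside Top2a. Of the 47 Tomato- cells with Penk, Neurog2, a proneural factor, was held by 74.5% (59.7 to 86.1), against 12.1% (8.68 to 16.2) of the other Tomato- cells. Otx2, a factor of photoreceptor fate, was held by 70.2% against 16.2%, and Atoh7, the factor required for RGC genesis, by 51.1% against 6.98%. The Notch ligand gene Dll1 was held by 38.3% against 6.35%. Top2a, expressed from S phase to mitosis, was held by 46 of the 47, against 62.5% of the others. Fgf15, a gene of retinal progenitors, was at 57.4% against 53.7%. Neurog2, Otx2 and Top2a were higher with Penk in 10 of 10 title numbers, and median totals were 267751 and 238886 counts. Of the 47 cells, 36 lay in cluster 6, which raised 9 of 9 neurogenic precursor markers. The shares were not compared within that cluster, so the part of its makeup in them was not tested.

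Adcyap1 in Tomato- cells went with a different set. Cntn2, an axonal adhesion molecule, was held by 85.7% (69.7 to 95.2) of its 35 cells against 24.8% (20.2 to 29.8) of other Tomato- cells, Pou4f2 by 77.1% against 20.2% and Pou4f1 by 71.4% against 28.1%. Median totals were 341399 and 230343 counts, and after thinning the Cntn2 shares were 70.2% and 36.2%. Within Tomato- RGC-like cells Cntn2 was held by 27 of the 30 with Adcyap1 and by 57.3% of the rest. There Pou4f2 was held by 80% and 55.2%, and Ppp1r17 by 43.3% and 20.8%. Opn4, the melanopsin gene, was held by 0 of the 35, which allows a share of up to 8.57%. Only 3 of all kept Tomato- cells held it, 0.829%, so this 0 says little about cells with Adcyap1. In Tomato+ cells Cntn2 was held by 38.9% with Adcyap1 and 33% without, and Opn4 by 7.41% and 5.13%.

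**Figure D5:**
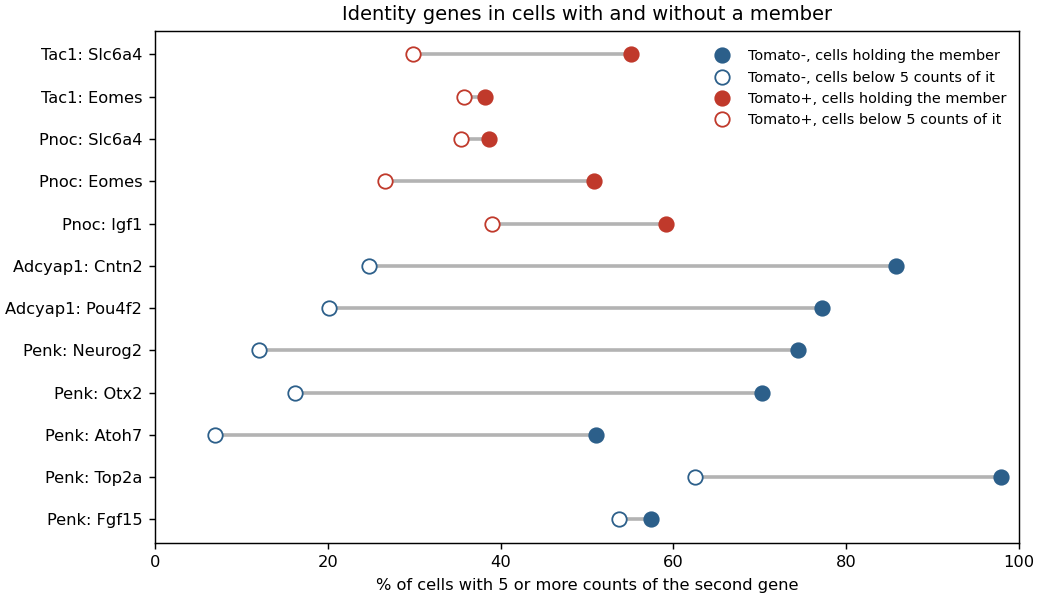
Percent of cells with 5 or more counts of the second gene of each pair, in cells that held the first gene (filled) and in cells below 5 counts of it (open), within Tomato+ (red) or Tomato- (blue) cells. Tac1 is apart at Slc6a4 and not at Eomes, Pnoc at Eomes and Igf1 and not at Slc6a4, and Penk is farthest apart at Neurog2.

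The genes most alike to each one were ranked by Pearson's r of log2(CPM + 10) over the 689 cells, among 9131 genes held by at least 5% of them. Cells share their pool and differ in depth and class, so r is a description, and it also holds the contrast between the groups. Tac1 was most like Slc6a4 (0.35), Ubash3b (0.33) and Cda (0.33). Within Tomato+ cells its r with Slc6a4 was 0.23 and within Tomato- cells 0.16. For Penk they were Neurog2 (0.57), Btg2 (0.51) and Otx2 (0.50), and Neurog2 stood at 0.56 within Tomato- and -0.03 within Tomato+ cells. Pnoc was most like Cntnap2 (0.41), Sncg (0.41) and Tubb2a (0.39), and Resp18 like Sncg (0.61), S100a10 (0.60) and Stmn3 (0.57). Within Tomato+ and Tomato- cells Pnoc and Cntnap2 stood at 0.21 and 0.28, Resp18 and Sncg at 0.45 and 0.54, and Gal and Gap43 at 0.29 and 0.35. Gal was most like Gap43, Sncg and Nefm (0.47, 0.46 and 0.46), which are general genes of growing RGC axons. Adcyap1 was most like Isl1, Nefm and Gap43 (0.25, 0.24 and 0.23). Within Tomato+ cells its r with Isl1 was 0.04 and within Tomato- cells 0.37. For Cartpt, with 2 cells, the values were 0.20 (Glra2), 0.20 (Ercc3) and 0.18 (Myo7a).

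The highest Gal cells of the Tomato- group lay mostly outside the RGC-like class, which held 34.8% of all kept Tomato- cells. With 5 cells looked at, their classes are given as a description only. The top 5 had 12358, 10775, 6230, 4545 and 2938 Gal counts, and the second of them gave 4.13% of all its counts to Gal. Of these 5, 4 held Atoh7, which 46 Tomato- cells held (12.7%), and 4 of the 5 were progenitor-like. Over all Tomato- cells the Atoh7 share was higher in cells with Gal in 5 title numbers and lower in 5. None of the top 5 Tomato+ cells held Atoh7, and all 5 were RGC-like.

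Peptide release needs processing and granule genes, and these were read from a list of 22. This list and those below were chosen with earlier results of these data known, so their counts are a description. Of the 20 that passed the same filter on low counts, 6 had a log2 ratio of at least 1 over all kept cells (2.31% of all genes tested). A ratio of at most -1 was seen in 0 (5.39%), and the median was 0.65 against -0.06 over all genes. Above 0 were 15 of the 20. The share of all genes above 0 was not counted, here or among RGC-like cells. Among RGC-like cells 13 were above 0, 2 of the 20 were at 1 or more (0.628% of all genes) and the median was 0.33 against -0.01. The 6 over all kept cells were Cadps (1.45), a priming factor of dense-core granules, Pcsk2 (1.44), a prohormone convertase, Scg3 (1.25), a granin, Ptprn (1.11), a granule membrane protein, Pcsk1n (1.10), an inhibitor of Pcsk1, and Chgb (1.05), a granin. Pcsk2 was held by 44.6% of Tomato+ cells and Cpe, the carboxypeptidase that trims the cut peptides, by 93.6%, at 803 CPM for Tomato+ against 475 CPM for Tomato-. Pcsk1, the other main convertase, was held by 2.75% of Tomato+ cells at 5.50 CPM. Chga stood at 0.65, Scg5 at 0.63, Syt4 at 0.91, Pcsk7 at 0.51, Pam, the amidating enzyme, at 0.21 and Cpd at -0.25, all over all kept cells. Among RGC-like cells the 2 at 1 or more were Pcsk2 (1.11) and Pcsk7 (1.09), while Cadps stood at 0.75, Ptprn at 0.74, Chgb at 0.61, Scg3 at 0.51, Pcsk1n at 0.33 and Chga at 0.33. Syt4 (0.05), Scg5 (-0.03) and Cpe (-0.03) were near 0 there and Pam stood at -0.40.

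Of 46 other neuropeptide precursor genes, 45 were in the table and 5 passed the filter. Somatostatin (Sst) was held by 77 Tomato+ cells, 23.5%, and 18 Tomato- cells, 4.97%, at 111.8 and 29.3 CPM, a log2 ratio of 1.63. Among RGC-like cells Sst was held by 23.9% and 8.73%, with a ratio of 0.86. Agrp was held by 5.20% of Tomato+ and 0.829% of Tomato- cells (0.82), Pomc by 3.98% and 4.70% (-0.67) and Nmb by 4.89% and 3.31% (0.11). Gnrh1, the fifth, was held by 4 and 6 cells. Among RGC-like cells the ratio was 0.87 for Agrp, -0.09 for Pomc and -0.12 for Nmb.

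Receptors for these peptides were sparse. Of 13 receptor genes, 12 were in the table and 4 passed the filter, Oprl1, Oprm1, Adcyap1r1 and Vipr2. Oprl1, the nociceptin receptor, was held by 66 Tomato+ cells, 20.2%, and 21 Tomato- cells, 5.80%, at 31.8 and 12.9 CPM (log2 ratio 0.86), and among RGC-like cells by 20.8% and 11.9% (0.76). Oprm1, an opioid receptor, was held by 22 Tomato+ cells, 6.73%, and by 0 Tomato- cells, which allows up to 0.829%. The tachykinin receptor genes Tacr1 and Tacr2 and the galanin receptor genes Galr1 and Galr2 had 0 counts in both groups.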

How the data were processed

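Single cells of E15.5 retina were sorted and sequenced, with SmartSeq2 libraries per the labels. The authors deposited unnormalised counts per gene and cell. The count columns are named umi per the file headers, while SmartSeq2 as usually run has no molecular identifiers. Which of molecules or reads was counted is not otherwise stated, and for reads the Poisson intervals are too narrow. Seurat 2.3, R 3.4.4 and mm10 are named in the submitters' processing notes. The aligner and annotation are not given in the sources used here. Of 801 value columns, 1 had no matching sample label and was left aside. The 7 genes and the gene lists were chosen with earlier results of these data known.

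Counts were summed per group and scaled to CPM, with 10 CPM added in ratios. Cells were clustered with scanpy 1.11.5 on log counts scaled by library size (2000 variable genes, 20 principal components, 15 neighbours, Leiden resolution 1). Genes were not brought to unit variance, a departure from the plan made after a first clustering was led by genes of a few cells. Clusters were named by the marker list with the largest share of its genes raised, if 3 or more were, and left unnamed where their top 10 genes held more markers of another list. No doublet caller was run, and doublets would add to co-detection.

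Named genes are the 7, the 3 most alike to each, identity genes, and list genes held by at least 10% (other precursors 2%) of a group's cells. Pcsk1, Gnrh1, Oprm1, Adcyap1r1, Vipr2 and the receptors at 0 were named after their values were seen. Computations were tested on simulated data. Alternatives included edgeR 4.0.16 TMM and DESeq2 1.42.0 size factors, used for scaling only.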

Additional observations from a re-analysis of the deposited data

How the results depend on the processing

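With 1 sample per group, no setting has a test. All but 5 recomputed log2 ratios moved by less than the SD over single title numbers, which was 0.34 (Cartpt) to 0.80 (Gal). Most recomputations left out 1 title number, which can move a summed ratio by only part of that SD. For Adcyap1 the SD of 0.58 was also larger than the ratio of 0.16 itself. This limit is therefore too wide to show stability, and nothing is read from the count. With 1 CPM added in place of 10, the ratio was 3.13 for Tac1, -4.20 for Penk and 1.28 for Cartpt. Leaving out each title number in turn gave 2.06 to 2.31 for Tac1, -2.36 to -2.03 for Penk, 2.12 to 2.42 for Pnoc, 0.08 to 0.31 for Adcyap1, 0.70 to 1.05 for Gal, 0.03 to 0.23 for Cartpt and 1.59 to 1.84 for Resp18. The TMM and DESeq2 factors of the groups differed by 0.123 and 0.137 (log2) and changed no sign.

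Differences in share of cells are Tomato+ minus Tomato- in percentage points. At 20 or more counts they were 18.3 for Tac1 and 26.5 for Pnoc. At 1 or more counts they were 11.1 for Gal and 38.9 for Resp18, and after thinning 23.9 for Gal. Without the limit on mitochondrial counts they were 26.8 for Gal and 38.8 for Resp18. Within RGC-like cells, an alternative chosen after seeing the data, they were -0.644 for Penk, 22.9 for Gal and 33.3 for Resp18, and Adcyap1 reversed to -7.14. Of the 30 Tomato- RGC-like cells with Adcyap1, 22 lay in cluster 4. At least 2 genes were held by 88.1% of Tomato+ and 55.5% of Tomato- cells at 1 or more counts, and by 63% and 16.9% at 20 or more. At Leiden resolution 0.5 the RGC-like share was 68.5% for Adcyap1 and 69.03% for Gal. With genes at unit variance it was 78.7% and 72.1%, against 93.3% and 78.01% in the main clustering. The main clustering left out unit variance after a first clustering was seen, a departure from the plan. The causes of these shifts were not tested. Cluster names also changed at resolution 0.5, where a cluster led by Rassf4 and Cntn2 was left unnamed. With the ROW numbers as replicate block, chosen after seeing the data, the mean ratio within ROW numbers was 1.96 for Tac1, -1.63 for Penk, 2.39 for Pnoc, 0.28 for Adcyap1, 1.71 for Gal, 0.08 for Cartpt and 2.29 for Resp18. What a ROW number shares is not stated, and no test was made.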

Other observations

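The 73 Tomato+ and 38 Tomato- cells with more than 20% mitochondrial counts were shallow, with median totals of 94705 and 88370 counts. Of the 73, Gal was held by 13, Resp18 by 7, Pnoc by 5, Tac1 by 3 and Adcyap1 by 3. Of the 38, Gal was held by 9, Adcyap1 and Resp18 by 3 each, Penk by 1, and Tac1 and Pnoc by 0.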
